A study of Mus musculus with 4 samples.

Results

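The genes of the phagocyte NADPH oxidase were followed in 4 mouse liver libraries, 2 of controls and 2 with Ubc13 deleted in the liver. Ubc13 is an E2 enzyme of K63-linked ubiquitin chains encoded by Ube2n. The 6 genes, Cybb, Cyba, Ncf1, Ncf4, Rac2 and Nox4, were found by symbol among the 56953 gene rows of the count table, and all 6 passed the filter on low counts. Cybb was chosen by its fold change in these libraries, so its own difference is given as a description and carries no test. The other 5 genes were listed for their place in or beside the same enzyme. A list of 12 further oxidase genes was followed beside them.

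Both groups carried Ubc13 flox/flox alleles, were 2 months old and had a normal diet. Controls were Alb negative and were labelled WT. Mice of the deletion group were Alb positive, taken here as an albumin-driven Cre, which acts in hepatocytes; the labels do not spell out the Cre. Phagocytes, endothelium and stellate cells would then keep Ubc13, and the labels do not say whether each library came from its own animal, so p-values measure only the spread between these libraries. The source is named as liver, although the library protocol speaks of primary hepatocytes. Markers of Kupffer cells, endothelium and stellate cells were counted in every library (Clec4f at 1896 to 4534 counts, Stab2 at 942 to 1386, Lrat at 299 to 422).

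The phagocyte oxidase moves electrons from NADPH across a membrane to oxygen and so makes superoxide, which neutrophils, monocytes and macrophages use against microbes and as a signal. Cybb encodes NOX2, the catalytic membrane subunit, and Cyba the smaller membrane partner that stabilizes it. The products of Ncf1 (an organizer), Ncf4 (a phosphoinositide-binding adaptor) and Rac2 (a GTPase) lie in the cytosol and join these membrane proteins when a phagocyte is stimulated. Nox4 encodes a separate catalytic subunit that also pairs with the product of Cyba but is constitutively active and is known mainly from stellate cells, fibroblasts, endothelium and hepatocytes.

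Depth was 16270424 to 17800138 counts per library, so that 3 counts correspond to 0.154 to 0.206 CPM (counts scaled to the size of the library with TMM factors). The libraries read transcripts near their 3' end. Ube2n had 41.3 and 44.9 CPM in controls against 5.88 and 5.97 CPM with the deletion, in the direction the labels give. The groups also differed in sex-linked RNA: Xist, the X-inactivation RNA, had 9 and 2 counts in controls against 9590 and 3896 with the deletion. Y-linked Ddx3y had 1027, 1011, 0 and 719 counts in control 1, control 2, deletion 1 and deletion 2. Deletion replicate 2 thus held both RNAs, and genotype and sex-linked RNA cannot be told apart here. Across 14600 tested genes, 6.57% were called at an adjusted p under 0.05 (edgeR quasi-likelihood test, Benjamini-Hochberg), 4.41% as higher and 2.16% as lower in the deletion libraries. Without any overlap between groups, 28.7% of tested genes had both deletion libraries above both controls and 27.3% had both below. At an unadjusted p under 0.05, 14% of tested genes were higher and 10.5% lower, and DESeq2 called 6.5% higher and 4.16% lower.

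Cybb was about 12-fold higher in the deletion livers, and none of the other 5 genes differed by as much as 2-fold. Cybb, the NOX2 gene, had 13.1 and 17.3 CPM in the controls (213 and 252 counts) and 183 and 190 CPM in the deletion libraries (3332 and 3700 counts). The 2 deletion libraries lay close together and far above both controls. The means were 15.2 ± 3.0 and 187 ± 5.2 CPM (SD, n = 2 each), a log2 fold change of 3.62 ± 0.20 (SE), the 116th highest of 14600. Leaving out any 1 library moved the log2 fold change of Cybb between 3.43 and 3.83. The gene (ENSMUSG00000015340; this and all coordinates are on GRCm38) lies on the minus strand of chromosome X from 9435252 to 9487771. In its principal transcript, the last of 13 exons runs from 9435252 to 9438343. No other annotated gene overlaps Cybb. Because Cybb is X-linked, its value stands beside those of all X-linked genes, Cybb among them. Of 428 tested, 13 were called higher and 6 lower, where 4.41% and 2.16% of all tested genes were. The median log2 fold change of the 428 was 0.07, against -0.0036 over all tested genes.

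Cyba, the membrane partner of both NOX2 and NOX4, had 10.9 and 13.1 CPM in controls against 20.1 and 17.9 CPM with the deletion. Both deletion libraries were above both controls, but the difference was far smaller than for Cybb: 11.96 ± 1.6 against 19.0 ± 1.5 CPM (SD, n = 2 each). Its log2 fold change of 0.67 ± 0.18 missed the threshold (adjusted p = 0.0893). It passed when control replicate 2 was left out (adjusted p = 0.0341). The gene (ENSMUSG00000006519) lies on chromosome 8 from 122424776 to 122432930, minus strand, with 6 exons, the last from 122424776 to 122425087.

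**Figure D1:**
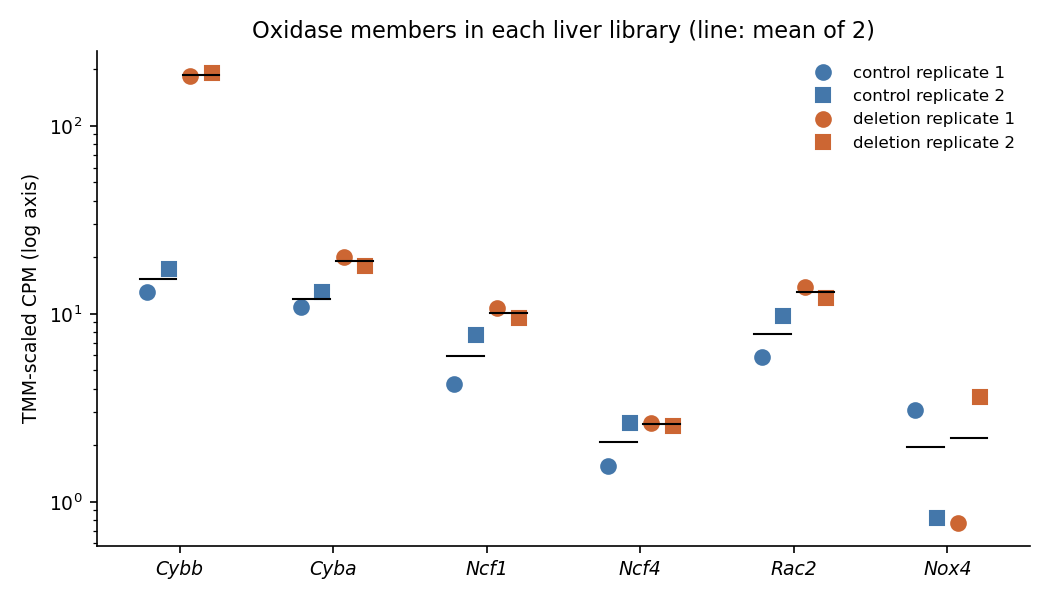
TMM-scaled CPM (log axis) of the 6 genes in each library, with circles for replicate 1, squares for replicate 2 and a line at each group mean. Cybb sits at 183 and 190 CPM in the deletion libraries against 13.1 and 17.3 in the controls, while the Nox4 points of the 2 groups interleave.

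The cytosolic organizer Ncf1 had 4.26 and 7.69 CPM in controls against 10.8 and 9.52 CPM with the deletion. Control replicate 1 was the lowest library for this gene, and the groups did not overlap. The log2 fold change was 0.77 ± 0.32 (adjusted p = 0.216), or 0.39 without control replicate 1 and 1.25 without control replicate 2, where it passed (adjusted p = 0.0166). Ncf1 (ENSMUSG00000015950, chromosome 5, 134220053 to 134229625, minus strand, 11 exons) shares its 3' end with Gtf2ird2 on the other strand, from 134220053 to 134224355. The strand setting of the counting is not given in the sources used here, so reads of these 2 genes may not be told apart; Gtf2ird2 had 145 and 183 counts in controls against 157 and 137 with the deletion.

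Rac2, the GTPase of blood cells that activates the assembled enzyme, followed nearly the same course as Ncf1. Its levels were 5.92 and 9.76 CPM in controls against 13.96 and 12.1 CPM with the deletion, again without overlap and with control replicate 1 lowest. The log2 fold change was 0.74 ± 0.28 (adjusted p = 0.182), or 0.42 without control replicate 1 and 1.14 without control replicate 2, where it passed (adjusted p = 0.0136). Rac2 (ENSMUSG00000033220) lies on chromosome 15 from 78559167 to 78572783, minus strand, and the last of its 7 exons runs from 78559167 to 78561485. Over the 4 libraries, the root mean square distance between the centred log2 CPM of Rac2 and Ncf1 was 0.0506, the smallest of any pair among the 6 genes, against 1.43 between Rac2 and Cybb.

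Ncf4, the adaptor that binds the phagosome membrane lipid, was the least counted cytosolic subunit of this list, with 25 and 38 counts in controls against 48 and 49 with the deletion. On the CPM scale these are 1.54 and 2.61 against 2.64 and 2.52, so that control replicate 2 reached the level of the deletion libraries and the groups overlapped. Its log2 fold change was 0.32 ± 0.39 (adjusted p = 0.679), and -0.02 without control replicate 1. Ncf4 (ENSMUSG00000071715) lies on chromosome 15 from 78244801 to 78262580, plus strand, and has 10 exons.

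Nox4, the catalytic relative outside the phagocyte enzyme, varied more within the groups than between them. It had 3.08 and 0.824 CPM in controls against 0.769 and 3.60 CPM with the deletion, from 50, 12, 14 and 70 counts. Control replicate 1 and deletion replicate 2 were thus well above the other 2 libraries. The log2 fold change was 0.16 ± 0.85 (adjusted p = 0.939) and turned to -1.34 without deletion replicate 2 and -0.49 without control replicate 2. The stromal gene Acta2 was also high in control replicate 1 (557 counts against 71 in control replicate 2) and the duct gene Krt19 likewise (635 against 47). In deletion replicate 2, where Nox4 was highest, Acta2 had 77 and Krt19 77 counts. Across the whole list of 10 stellate and fibroblast markers the summed level was 604 and 458 CPM in controls against 481 and 478 CPM with the deletion, and their part in the Nox4 values was not tested. Nox4 (ENSMUSG00000030562) lies on chromosome 7 from 87246096 to 87398710, plus strand.

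Of the 5 genes other than Cybb, 0 were called by edgeR in either direction, where 6.57% of all tested genes were called. At an unadjusted p under 0.05, 2 of the 5 (Cyba and Rac2) were higher and 0 lower, against 14% and 10.5% of all tested genes, and DESeq2, which called 6.5% of its tested genes higher and 4.16% lower, called 0. All 5 had a positive log2 fold change, as did 7247 of the 14600 tested genes. The median of the 5 was 0.67, against -0.0036 over all tested genes. In 3 of the 5 both deletion libraries were above both controls, as in 28.7% of all tested genes.

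**Figure D2:**
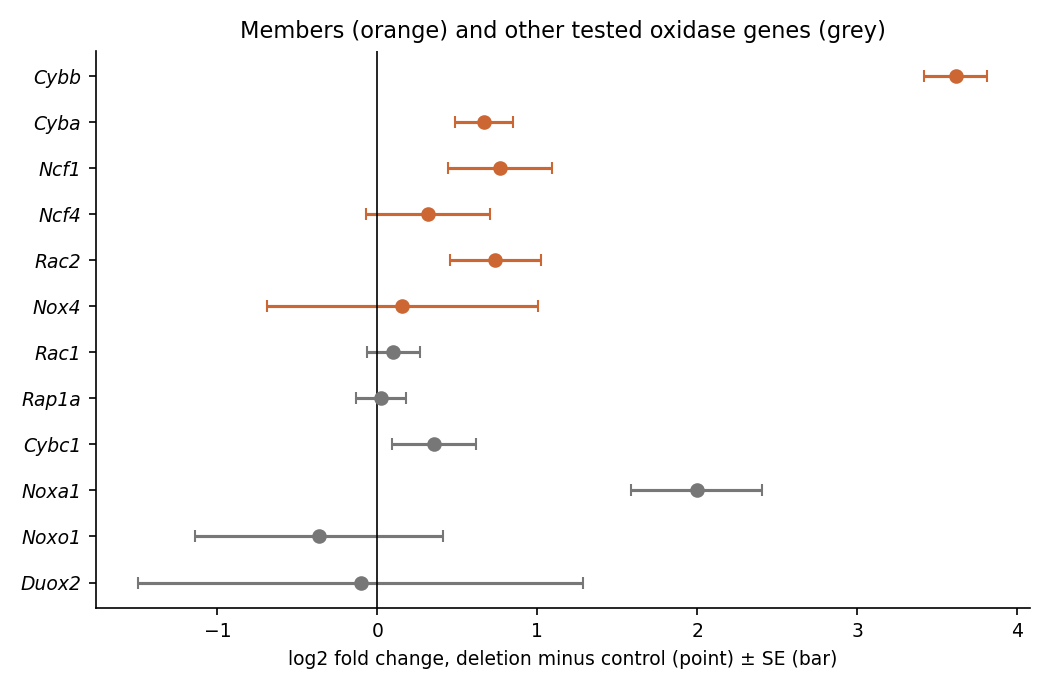
Log2 fold change, deletion minus control, with its SE as a bar, for the 6 genes (orange) and 6 further oxidase genes (grey), from the fit over all 4 libraries. Cybb stands at 3.62 and Noxa1 at 2.00, and all other points lie below 1.

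With Cybb so much higher and its partners little different, the ratio of counts between them differed between the groups. For each count of Cyba there were 1.21 and 1.33 counts of Cybb in controls against 9.13 and 10.6 with the deletion, 7.79-fold more. Per count of Rac2 it was 7.21-fold higher and per count of Ncf1 6.93-fold. No test is attached, since Cybb was chosen for its difference.

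Leukocyte RNA was somewhat higher in the deletion libraries, and this stands beside every value above. In bulk tissue, more cells of a type and more RNA per cell cannot be told apart. The summed level of 10 leukocyte markers (such as Ptprc, Laptm5 and Coro1a) was 154 and 172 CPM in controls against 255 and 221 CPM with the deletion, 1.46-fold. Of these 10 markers edgeR called 0 in either direction (6 higher and 0 lower at an unadjusted p under 0.05, 1 higher with DESeq2). The median log2 fold change of the 10 was 0.67. Beside this and the following lists, edgeR called 4.41% of all tested genes higher and 2.16% lower. At an unadjusted p under 0.05 the shares were 14% and 10.5%, and with DESeq2 6.5% and 4.16%. Called leukocyte markers numbered 6 without control replicate 2, 5 with no filter on low counts and 2 with library sizes alone, all higher. Monocyte and recruited macrophage markers summed to 159 and 198 CPM against 453 and 381 CPM, and 4 of 12 were called higher: Gpnmb, Mpeg1, Cx3cr1 and Trem2, by 2.82, 2.32, 2.00 and 1.99 on the log2 scale. The median of these 12 was 1.08. Called members of this list numbered 1 with either deletion replicate left out and 7 without control replicate 2. Kupffer cell markers summed to 449 and 627 CPM against 929 and 748 CPM, with 1 of 10 called, Cd5l (0.83 ± 0.18, adjusted p = 0.0499). On all 4 libraries, Cd5l was no longer called with median-of-ratios factors in edgeR or with a replicate block. That call was lost without control replicate 1 or either deletion replicate, and without control replicate 2 there were 6. Neutrophil markers were near the floor: they summed to 2.34 and 5.77 CPM against 10.4 and 9.57 CPM, Ly6g had 0 counts in all 4 libraries, and 3 of 12 could be tested, of which edgeR called 0 (2 higher at an unadjusted p under 0.05, 0 with DESeq2), or 2 without control replicate 2. B cell markers were at 6.85 and 9.28 CPM against 9.51 and 7.41 CPM in sum, T and NK cell markers at 4.26 and 6.46 against 8.63 and 5.30, and dendritic cell markers at 10.4 and 11.7 against 11.4 and 11.7. Of the cells that are no leukocytes, hepatocyte markers had 3 of 10 lower and 0 higher, with a median log2 fold change of -1.03. With an unadjusted p under 0.05, and likewise by DESeq2, 8 of these 10 were lower, and their sum was 0.511 times that of the controls. Of 8 sinusoidal endothelium markers 1 was called lower (3 at an unadjusted p under 0.05, DESeq2 2), with a median of -0.31. Cholangiocyte markers pointed both ways: Sox9 and Spp1 were called higher, while Krt19, Krt7, Cftr and Epcam stood at -2.62, -1.54, -0.85 and -0.77 without passing, and the median of these 6 was -0.81. Of 3 tested erythroid markers 0 were called (edgeR; 1 had an unadjusted p under 0.05, lower, and DESeq2 called 1 lower).

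Set against these sums, Cybb stood apart from the other subunits. Cybb was chosen for its rise in these same libraries, so its ratios are a description and no test is attached. Per 100 CPM of the 10 leukocyte markers, Cybb had 8.53 and 10.1 CPM in controls against 71.7 and 86.2 CPM with the deletion, 8.50-fold more. Cyba had 7.05 and 7.58 CPM in controls against 7.86 and 8.11 CPM with the deletion on the same basis, 1.09-fold. Ratios for Ncf1, Rac2 and Ncf4 were 1.18, 1.15 and 0.864 times those of the controls, with both deletion libraries inside the range of the controls for all 3. Lcp1 alone made up 38.1% to 60.6% of the leukocyte sum; without it, a choice made after seeing the values, the folds were 7.16 for Cybb, 0.905 for Cyba, 1.01 for Ncf1, 0.982 for Rac2 and 0.740 for Ncf4. Per 100 CPM of the 12 monocyte and recruited macrophage markers, Cybb was 5.31-fold higher and Cyba, Ncf1, Rac2 and Ncf4 were at 0.679, 0.742, 0.724 and 0.543 of the control ratio. Mpeg1 made up 22.0% and 22.2% of that sum in the controls and 45.3% and 49.6% with the deletion; without it, again a choice made after seeing the values, the sum was 1.58-fold higher instead of 2.34-fold. The folds of the ratios were then 7.91 for Cybb, 1.01 for Cyba, 1.10 for Ncf1, 1.075 for Rac2 and 0.808 for Ncf4. Csf1r and Lyz2 had the highest levels in that remaining sum, with log2 fold changes of 0.595 and 0.587. These folds therefore mostly set each gene against Csf1r and Lyz2. The called genes Gpnmb, Cx3cr1 and Trem2, at far lower levels, stood at 2.82, 2.00 and 1.99, and Mpeg1 at 2.32. Beside these called genes the 3.62 of Cybb was less far apart than the folds show. Per 100 CPM of Kupffer cell markers Cybb was 7.94-fold higher and Cyba 1.01-fold. The part that cell numbers had in these values was not tested.

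**Figure D3:**
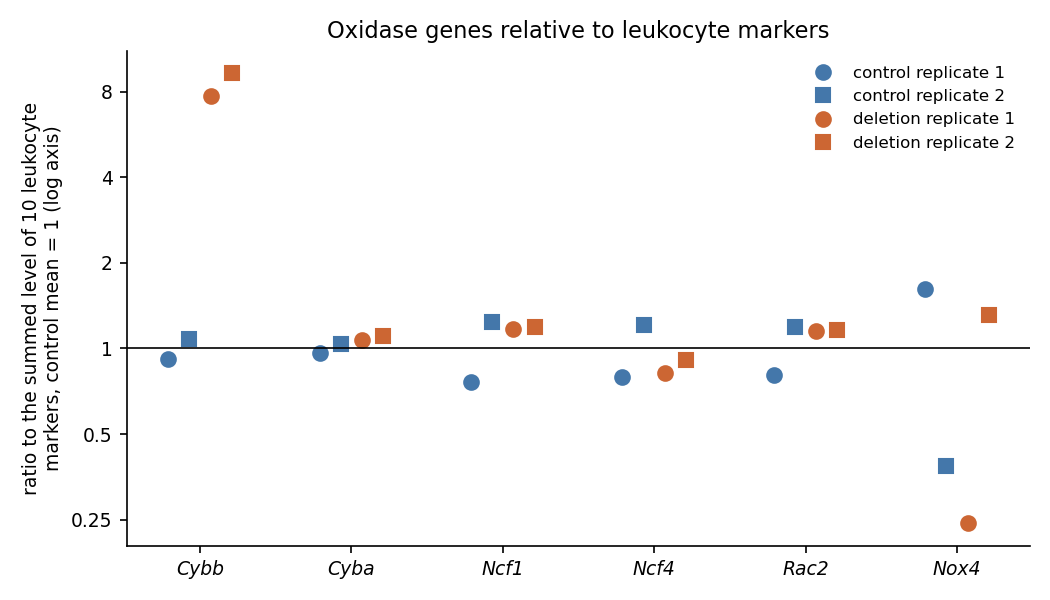
Each gene's CPM divided by the summed CPM of 10 leukocyte markers in the same library, set to 1 at the mean of the controls (log axis), with circles for replicate 1 and squares for replicate 2. Cybb lies far above 1 in both deletion libraries, at 8.50 on average, Cyba, Ncf1, Rac2 and Ncf4 stay near 1, and Nox4 scatters within both groups.

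The promoters of Cybb, Cyba and Ncf1 are shown because both deletion libraries lay above both controls for these genes. Cybb, chosen for its rise, had a log2 fold change of 3.62, while Cyba and Ncf1 stood close together at 0.67 and 0.77. Sequences are RefSeq's on GRCm38.p6, 250 bases before to 50 after the start, and 4 of the 6 genes had an entry. Capitals mark matches on either strand to GAAANNGAA, part of an interferon response element, GAGGAA, a core bound by PU.1 and other ETS factors, and CCAAT. The regions are chrX:9469275-9469574, chr8:122432891-122433190 and chr5:134229576-134229875, all read from the minus strand.
Cybb: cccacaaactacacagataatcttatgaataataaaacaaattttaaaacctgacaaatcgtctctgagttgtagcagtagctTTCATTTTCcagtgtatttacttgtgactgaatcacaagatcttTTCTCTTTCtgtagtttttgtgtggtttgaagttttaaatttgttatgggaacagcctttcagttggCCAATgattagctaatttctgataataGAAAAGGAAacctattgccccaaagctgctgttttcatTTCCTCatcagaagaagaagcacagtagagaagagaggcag
Cyba: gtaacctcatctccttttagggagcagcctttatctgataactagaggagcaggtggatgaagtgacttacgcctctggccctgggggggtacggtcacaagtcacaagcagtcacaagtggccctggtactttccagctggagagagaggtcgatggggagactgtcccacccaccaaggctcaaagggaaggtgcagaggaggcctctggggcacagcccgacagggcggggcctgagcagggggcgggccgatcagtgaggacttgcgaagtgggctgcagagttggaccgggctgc
Ncf1: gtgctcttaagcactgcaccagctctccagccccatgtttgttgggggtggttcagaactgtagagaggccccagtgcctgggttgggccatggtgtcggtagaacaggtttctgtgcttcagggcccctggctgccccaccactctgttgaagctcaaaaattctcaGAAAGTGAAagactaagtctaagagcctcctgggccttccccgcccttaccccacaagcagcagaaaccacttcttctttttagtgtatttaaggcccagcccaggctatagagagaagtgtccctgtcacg

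In the Cybb promoter GAAANNGAA matched at 3 places, from 167 to 159, from 123 to 115 and from 29 to 21 bases before the start. At least 1 match occurs in 8.56% of 32851 RefSeq promoters of this length and at least 3 matches in 0.0639%. The share with several matches was counted for this motif alone. Cybb also held 1 GAGGAA match, 9 to 14 bases after the start (28.3% of promoters hold one), and 1 CCAAT, 56 to 52 bases before it (37.4%). The Ncf1 window had 1 GAAANNGAA match, 82 to 74 bases before the start, and an overlapping match to the STAT motif TTCNNNGAA (8.30% of promoters). Nox4 also held 1 match to that motif, 222 to 214 bases before the start. Neither Cyba nor Nox4 held GAAANNGAA, GAGGAA or CCAAT in this window, and the NF-kB motif GGGNNTTTC (4.36% of promoters) was in none of the 4. A match describes letters and is neither a binding site nor a cause.

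Of the 12 further oxidase genes, 7 could be tested. By edgeR 1 was called higher and 0 lower, against 4.41% and 2.16% of all tested genes. At an unadjusted p under 0.05, 2 were higher and 0 lower, against 14% and 10.5%. DESeq2 called 1 higher and 0 lower, against 6.5% and 4.16% of its tested genes. The median log2 fold change of the 7 was 0.10. Cybc1, the chaperone that NOX2 and its partner need for stability, had 12.8 and 13.5 CPM in controls against 20.9 and 12.8 CPM with the deletion, where only deletion replicate 1 was high (0.36 ± 0.26, adjusted p = 0.464). The widely expressed GTPases Rac1 and Rap1a differed by 0.10 ± 0.16 and 0.024 ± 0.16 on the log2 scale (adjusted p = 0.766 and 0.950). In its last exon, Rac1 overlaps Daglb on the other strand by 2309 bases. Daglb had 250 and 246 counts in controls against 382 and 395 with the deletion.

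Noxa1, the activator that pairs with the epithelial oxidase NOX1, was the 1 further gene that rose, at low counts. It had 11 and 9 counts in controls against 53 and 45 with the deletion, or 0.679 and 0.618 against 2.91 and 2.32 CPM. The log2 fold change was 2.00 ± 0.41 (adjusted p = 0.0433), which did not pass without deletion replicate 1 (adjusted p = 0.239) or 2 (adjusted p = 0.198). The last 50 bases of Noxa1 (chromosome 2, 25085667 to 25085716) overlap Entpd8 on the other strand, which had 1760 and 1538 counts in controls against 1261 and 1297 with the deletion. Its usual catalytic partner was all but uncounted: Nox1 had 0 counts in the first 3 libraries and 1 in deletion replicate 2. The organizer Noxo1 had 13 and 4 counts in the controls against 4 and 12 (log2 fold change -0.36 ± 0.77, adjusted p = 0.824). Noxo1 overlaps Tbl3 on the other strand by 2581 bases, its last exon included. Tbl3 had 377 and 379 counts in controls against 425 and 445 with the deletion.

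The dual oxidase genes and Nox3 were near the limit of counting. Duox2 had 38 and 0 counts in controls against 36 and 5 with the deletion, so that replicate 1 of each group was high (log2 fold change -0.10 ± 1.39, adjusted p = 0.974). Its maturation factor Duoxa2 had 2, 0, 0 and 3 counts, Duoxa1 had 0 and 0 against 5 and 2, and Duox1 had 1 count in deletion replicate 1 and 0 elsewhere. Nox3, an oxidase of the inner ear, had 0 counts in every library, which allows up to 0.154 to 0.206 CPM (counting error only).

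Genes that start or steer oxidase assembly were mostly higher without passing the test. Of 30 tested genes of this signalling list, 3 rose and 0 fell by edgeR, where 4.41% of all tested genes rose and 2.16% fell. At an unadjusted p under 0.05, 13 were higher and 0 lower, against 14% and 10.5% of all tested genes. DESeq2 called 5 higher and 0 lower. The median log2 fold change was 0.59, and 26 were positive, as were 7247 of the 14600 tested genes. The count of 3 became 0 without deletion replicate 1, 1 without deletion replicate 2 and 9 without control replicate 2. Tlr2, a receptor for bacterial lipoproteins, had 3.39 and 1.51 CPM in controls against 26.2 and 9.88 CPM with the deletion (log2 fold change 2.86 ± 0.58, adjusted p = 0.0424). The Src family kinase gene Fgr of myeloid cells rose from 2.90 ± 0.27 to 7.34 ± 0.75 CPM (SD, n = 2 each; log2 fold change 1.34 ± 0.27, adjusted p = 0.0422). Arhgdia, which encodes a GDP-dissociation inhibitor that holds Rac in the cytosol, rose from 108 ± 5.2 to 194 ± 7.1 CPM (0.85 ± 0.15, adjusted p = 0.0273). Clec7a, the receptor for fungal glucans, was at the edge with 3.21 and 3.85 CPM against 8.79 and 7.67 CPM (1.22 ± 0.26, adjusted p = 0.0503). The proton channel gene Hvcn1, whose product balances charge during the burst, had 5, 10, 10 and 3 counts.

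Among 13 tested genes of transcription factors and coactivators known to act on Cybb, 1 rose and 0 fell by edgeR. Of all tested genes 4.41% rose and 2.16% fell. At an unadjusted p under 0.05, 6 were higher and 0 lower, against 14% and 10.5%. DESeq2 called 2 higher and 0 lower, against 6.5% and 4.16%. The median log2 fold change of the 13 was 0.41. The number that rose was 2 without control replicate 1 or deletion replicate 2 and 3 without control replicate 2, all higher. Irf1, an interferon response factor, had 20.0 and 16.7 CPM in controls against 54.2 and 32.5 CPM with the deletion (1.24 ± 0.27, adjusted p = 0.0513). Spi1, the gene of the myeloid factor PU.1, had 82 and 128 counts against 273 and 197 (0.86 ± 0.34, adjusted p = 0.190), and Irf8 10.7 and 11.7 CPM against 16.9 and 15.6 CPM (0.54 ± 0.17, adjusted p = 0.130). The groups of Irf1, Spi1 and Irf8 did not overlap, as was true in this direction of 28.7% of all tested genes. Of the 13 genes, 10 had a positive log2 fold change. Cebpa, Cebpb and Cebpe went the other way, at -0.36, -0.24 and -0.38 without passing, and Irf2 and Crebbp stood at 0.018 and 0.056.

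Of 15 genes whose products remove superoxide and peroxide, 2 rose and 0 fell (edgeR; unadjusted p under 0.05 in 5 and 2, DESeq2 3 and 1), and the median was -0.22. With either deletion replicate left out, 1 gene was called. Gpx3, the secreted glutathione peroxidase, rose from 7.77 ± 0.87 to 30.2 ± 5.8 CPM (1.96 ± 0.21, adjusted p = 0.00747). Txnrd1, the cytosolic thioredoxin reductase, rose from 129 ± 4.9 to 234 ± 6.6 CPM (0.86 ± 0.15, adjusted p = 0.0268). The superoxide dismutases Sod1, Sod2 and Sod3 stood at -0.53, -0.45 and -0.22 on the log2 scale and catalase (Cat) at -0.68, none of which passed (adjusted p from 0.0974 to 0.398). Among 12 tested genes of other sources of superoxide, peroxide and nitric oxide, Aox1 (aldehyde oxidase) rose by 1.08 ± 0.22 on the log2 scale (adjusted p = 0.0422) and the hepatocyte cytochrome Cyp2e1 fell by 2.12 ± 0.33 (adjusted p = 0.0213), with 10 not passing. In this list 3 genes were higher and 6 lower at an unadjusted p under 0.05, DESeq2 called 2 higher and 6 lower, and the median was -0.29. Called genes numbered 6 with either control replicate left out and 1 without deletion replicate 1. Nos2, the inducible nitric oxide synthase of macrophages and hepatocytes, had 0 and 0 counts in controls against 158 and 19 with the deletion. Its spread within the deletion group was wide, and it did not pass (adjusted p = 0.0749).

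By the distance of centred log2 CPM over the 4 libraries, the 5 genes nearest to Cybb among the tested genes were Nrg1, Neurl1a, Spire2, Tgtp1 and Slc13a5, at 0.0449 to 0.159. Their log2 fold changes were 3.90, 3.87, 3.97, 3.82 and 3.89, and 4 of the 5 had under 1 CPM in each control; Tgtp1, a GTPase gene, had 2.59 and 3.98 CPM in controls against 43.6 and 49.1 CPM with the deletion. None of the leukocyte or macrophage markers was among them, but none had so large a log2 fold change, the highest being Gpnmb at 2.82. The distance depends on the size of the fold change, and Cybb was chosen for its own. That absence therefore says nothing about cell types. Nearest to Cyba were C1s1, Zfp217, Rasgrp1, Cmklr1 and Tbc1d1, at 0.0155 to 0.0381. Nearest to Nox4 were Ccdc171, at 0.0376, and then, at 0.202 to 0.207, Gm17753, ENSMUSG00000120882, Clec2h and Gm15611. Ccdc171 had 2.47 and 0.618 CPM in controls against 0.550 and 2.83 CPM with the deletion, the same alternation within both groups as Nox4. With 4 libraries in 2 groups, many genes share any such pattern, and likeness is given as a description.

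**Figure D4:**
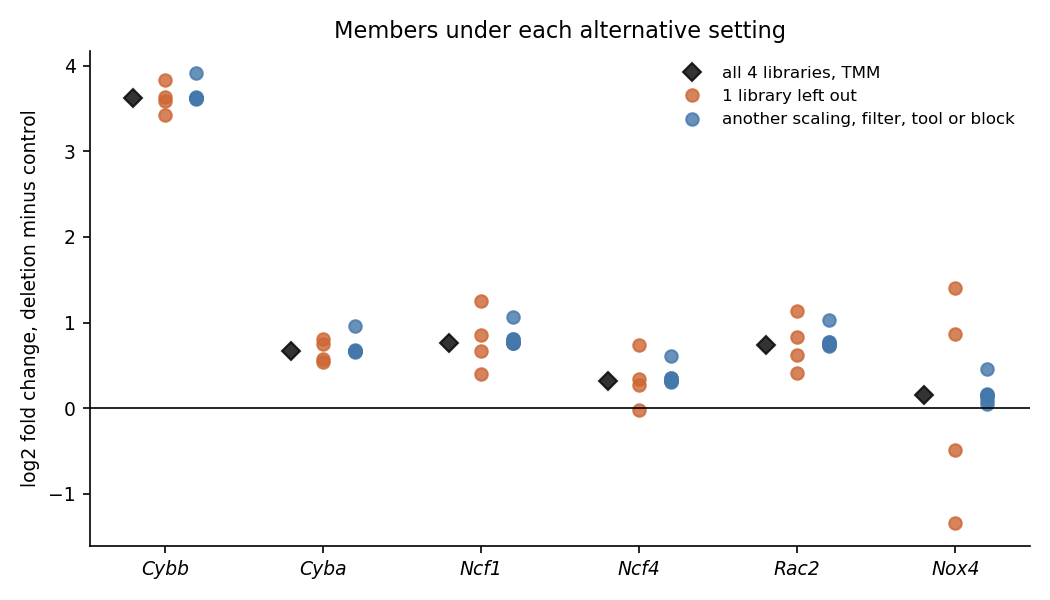
Log2 fold change, deletion minus control, of the 6 genes from the fit over all 4 libraries (diamonds), with 1 library left out (orange) and under another scaling, filter, tool or replicate block (blue). Cybb stays between 3.43 and 3.91, Ncf1 and Rac2 shift with the control left out, and Nox4 takes both signs.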

How the data were processed

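RNA from 4 liver samples was read as 3' libraries (QuantSeq, single-end 75 bp), aligned with Bowtie2 to builds named mm10 and GRCm38, per the labels' protocols and the submitters' processing notes. Which program counted the reads, on which strand and with which annotation is not given in the sources used here. Values are raw counts per Ensembl gene, as the authors deposited them. Symbols came by identifier from GENCODE M21, which matched 52029 of 56953 gene rows. Groups were compared with the two-sided quasi-likelihood test of edgeR 4.0.16 in R 4.3.3, after TMM scaling and filterByExpr (min.count 10, min.total.count 15), with genotype as the only term and 2 residual degrees of freedom. P-values were adjusted over all 14600 tested genes. Each SE is the size of the log2 fold change divided by the root of its F statistic. An exact permutation over 2 against 2 libraries cannot go below a two-sided p of 0.333, so single values were not tested that way. Alternatives were other scalings, no filter, robust fitting, a replicate block, each library left out, and DESeq2 1.42.0. The fit was tested on simulated data with known changes. The members and the 17 gene lists beside them were chosen with earlier results of these data known. All 6 members and the 12 further oxidase genes were to be named, and of each other list the called genes by size of change, with the first 3 of a marker list where a value is needed and any at 0; the counts of each list cover all its genes, but some genes of these lists are not reported here. Genes named beyond that rule were chosen after their values were seen: Clec7a, Hvcn1, Irf1, Spi1, Irf8, Nos2, the Sod genes and Cat, Acta2, Krt7, Cftr, Epcam, Lcp1, Ddx3y, Gtf2ird2 and Entpd8. So were Csf1r, Lyz2, the Cebp genes, Irf2, Crebbp, Tbl3 and Daglb.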

Additional observations from a re-analysis of the deposited data

How the results depend on the processing

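Cybb was higher under all 11 alternatives, with log2 fold changes of 3.43 to 3.91. Library sizes alone as scaling moved the median of all genes by 0.29 on the log2 scale and Cyba to 0.96, about that shift. Genes called across the table numbered 959, but 1764 with library sizes alone (88.5% of them higher, against 67.2%), 2768 with no filter, 1568 with DESeq2, 390 with the replicate block and 343 to 2081 with 1 library left out. Of the 5 members other than Cybb, 0 were called, against 1 with library sizes alone (Cyba), 2 with no filter (Cyba and Rac2) and 0 to 3 with 1 library left out, the 3 being Cyba, Ncf1 and Rac2 without control replicate 2. Of the further oxidase genes, 1 was called, against 2 with library sizes alone (Noxa1 among them), 0 with the replicate block (Noxa1 at an adjusted p of 0.104) and 0 to 1 with 1 library left out.

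Signs turned in 7 genes that were not called. With 1 library left out, the log2 fold change ran from -0.021 to 0.74 for Ncf4, from -1.34 to 1.40 for Nox4, from -0.034 to 0.25 for Rac1, from -0.054 to 0.67 for Cybc1, from -0.092 to 0.14 for Rap1a, from -1.28 to 0.60 for Noxo1 and from -2.18 to 7.28 for Duox2, whose remaining control had 0 counts at the upper end. Duox2 was at 0.16 with library sizes alone, 0.38 with the replicate block and 0.085 with it crossed. Equal replicate numbers did not deviate together (correlation -0.12 across genes), so the block with crossed numbers was added after seeing the data: it called 1366 genes, 0 of the 5 members and 1 further oxidase gene. The cause of these shifts was not tested. Counts under 100 in every library limit Ncf4, Nox4, Noxa1, Noxo1 and Duox2. Ncf1 and Rac2 also had under 100 in control replicate 1 (69 and 96 counts).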
